A study of Mus musculus with 8 samples.

Results

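This account follows 35 genes of skeletal muscle, the genes of the sarcomere, of its calcium supply and of its energy metabolism, in RNA from mouse dorsal skin. The genes were fixed as a list of symbols, and each was given the log2 signal of its brightest probe set, the one with the highest mean over all 8 arrays. All 35 had a probe set among 18193 genes on the array, all 35 were among the 12420 genes that passed the filter on low signals, and 32 lay above the array median on all 8 arrays. Skin of Balb/c mice was painted with the hapten DNCB (1-chloro-2,4-dinitrobenzene), a contact sensitizer used to model atopic dermatitis, for 15 days. Over the last 7 days the skin received vehicle or a gel with 5% HY209, a compound that acts on the bile acid receptor GPCR19. The groups were sham skin with neither agent (titled Sham, 2 arrays), skin with DNCB and no HY209 (titled DNCB_HY209(-), 3 arrays, here DNCB) and skin with both (titled DNCB_HY209(+), 3 arrays, here DNCB+HY209). Titles and source names define the sham group, since the protocol fields of these samples carry the text of the DNCB model, and this doubt bears on each comparison against sham. The labels state neither separate animals nor the depth of the skin piece, so a p-value here reflects how far the samples of a group differ, which may be technical.

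Skeletal muscle contracts when calcium released from the sarcoplasmic reticulum binds troponin on actin filaments and lets myosin pull on them, while titin, nebulin and the Z disc hold the filaments in register. Fast and slow fibres build the same machine from paralogous genes, so that troponin, myosin light chain, myosin-binding protein C and calcium pump each have a fast and a slow or cardiac form. Mouse dorsal skin carries such muscle as a thin sheet under the dermis, the panniculus carnosus. In RNA of a whole skin piece, fewer muscle cells and less muscle RNA per cell cannot be told apart.

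RefSeq promoter windows, from 250 bases before to 50 bases after an annotated start on build GRCm38.p6, were at hand for 26 of the 35 genes, as 31 windows. They are described because most of these genes varied together between arrays, as shown further on. The E-box CAGCTG, a form of the CANNTG motif bound by myogenic factors, stood in 17 of the 31 windows (54.8%), against 16.3% of all 32851 windows of the same length. It reads the same on both strands and every such match is also a CANNTG match, which 83.9% of the muscle windows and 72.3% of all windows held. A MEF2 site was found in 9.68% against 3.19%, an M-CAT motif (CATTCC, either strand) in 25.8% against 14.7%, a CArG box in 9.68% against 1.63%, and TATAAA in 9.68% against 13.6%. The windows of 5 genes are printed because they stand for the patterns found in the arrays. Ckm is a general muscle enzyme gene (chr7:19410844-19411143, plus strand) and Atp2a1 a fast-fibre gene (chr7:126463024-126463323, minus strand). Mybpc1 (chr10:88605103-88605402, minus strand) and Tnni1 (chr1:135799171-135799470, plus strand, the first of its 2 windows) are slow-fibre genes. Pvalb (chr15:78206351-78206650, minus strand, the first of its 2 windows) is the fast-fibre gene that correlated least with the mean of the other muscle genes. Each is written 5′ to 3′ along its gene, and the capitals mark CAGCTG, or in Pvalb the MEF2 site. A match describes the letters of the window and is no evidence of binding.
Ckm: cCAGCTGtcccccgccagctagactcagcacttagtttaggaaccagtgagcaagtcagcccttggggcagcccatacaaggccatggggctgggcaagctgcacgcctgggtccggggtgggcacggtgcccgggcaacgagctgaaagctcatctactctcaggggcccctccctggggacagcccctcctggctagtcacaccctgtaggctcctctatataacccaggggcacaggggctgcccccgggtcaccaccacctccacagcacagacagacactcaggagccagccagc
Atp2a1: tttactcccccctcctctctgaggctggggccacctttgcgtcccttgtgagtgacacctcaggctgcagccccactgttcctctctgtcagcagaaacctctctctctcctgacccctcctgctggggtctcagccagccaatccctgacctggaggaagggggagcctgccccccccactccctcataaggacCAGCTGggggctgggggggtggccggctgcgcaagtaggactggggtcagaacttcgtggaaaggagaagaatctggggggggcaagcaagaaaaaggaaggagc
Mybpc1: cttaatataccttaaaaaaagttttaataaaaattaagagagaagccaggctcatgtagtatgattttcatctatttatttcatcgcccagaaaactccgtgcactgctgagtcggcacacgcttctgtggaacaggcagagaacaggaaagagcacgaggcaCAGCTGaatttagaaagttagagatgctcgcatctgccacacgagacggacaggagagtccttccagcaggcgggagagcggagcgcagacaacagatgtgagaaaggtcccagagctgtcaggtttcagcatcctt
Tnni1: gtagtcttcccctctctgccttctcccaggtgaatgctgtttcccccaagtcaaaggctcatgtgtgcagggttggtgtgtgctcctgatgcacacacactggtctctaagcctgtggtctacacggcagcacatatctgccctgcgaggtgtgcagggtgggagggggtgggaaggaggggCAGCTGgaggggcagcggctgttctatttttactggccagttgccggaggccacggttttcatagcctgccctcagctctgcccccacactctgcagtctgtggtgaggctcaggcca
Pvalb: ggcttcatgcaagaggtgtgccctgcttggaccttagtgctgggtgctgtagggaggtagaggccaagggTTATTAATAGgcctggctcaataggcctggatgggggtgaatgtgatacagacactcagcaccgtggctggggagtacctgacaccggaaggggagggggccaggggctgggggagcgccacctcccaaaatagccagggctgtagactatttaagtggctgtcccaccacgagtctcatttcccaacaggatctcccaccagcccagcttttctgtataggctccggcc

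For most of the muscle genes, levels differed more between arrays of the same group than between the groups. For each gene the deviation is its log2 signal on an array minus its mean over the 8 arrays, and the mean of this over the 35 genes was -1.56 and 0.02 on sham arrays 1 and 2, 0.85, 0.55 and -0.995 on the 3 arrays of DNCB in order of their number, and 0.22, 0.42 and 0.50 on those of DNCB+HY209. Sham 1 and DNCB 3 were low, sham 2 lay slightly below the DNCB+HY209 arrays, and DNCB 1 and 2 lay above them. The sham mean was -0.77 ± 1.12 (SD, n = 2). The DNCB mean was 0.13 ± 0.99 (n = 3), and that of the HY209-treated skin was 0.38 ± 0.15 (n = 3). The smaller spread in DNCB+HY209 was not tested. Of the 35 genes, 24 had their lowest signal on sham 1 and 9 on DNCB 3, arrays that held the lowest signal of 14.6% and 6.22% of all genes. The highest signal fell on DNCB 1 for 20 genes and on DNCB 2 for 9, against 7.71% and 30% of all genes. Quantile normalization moved these counts to 27 and 4 of 34 genes, against 11.9% and 13.9% of all genes. It also set the mean deviation at 0.27 on DNCB 2, below the 0.33 to 0.36 of DNCB+HY209, and at 0.26 on sham 2, while sham 1 and DNCB 3 stayed low at -1.50 and -0.95.

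**Figure D1:**
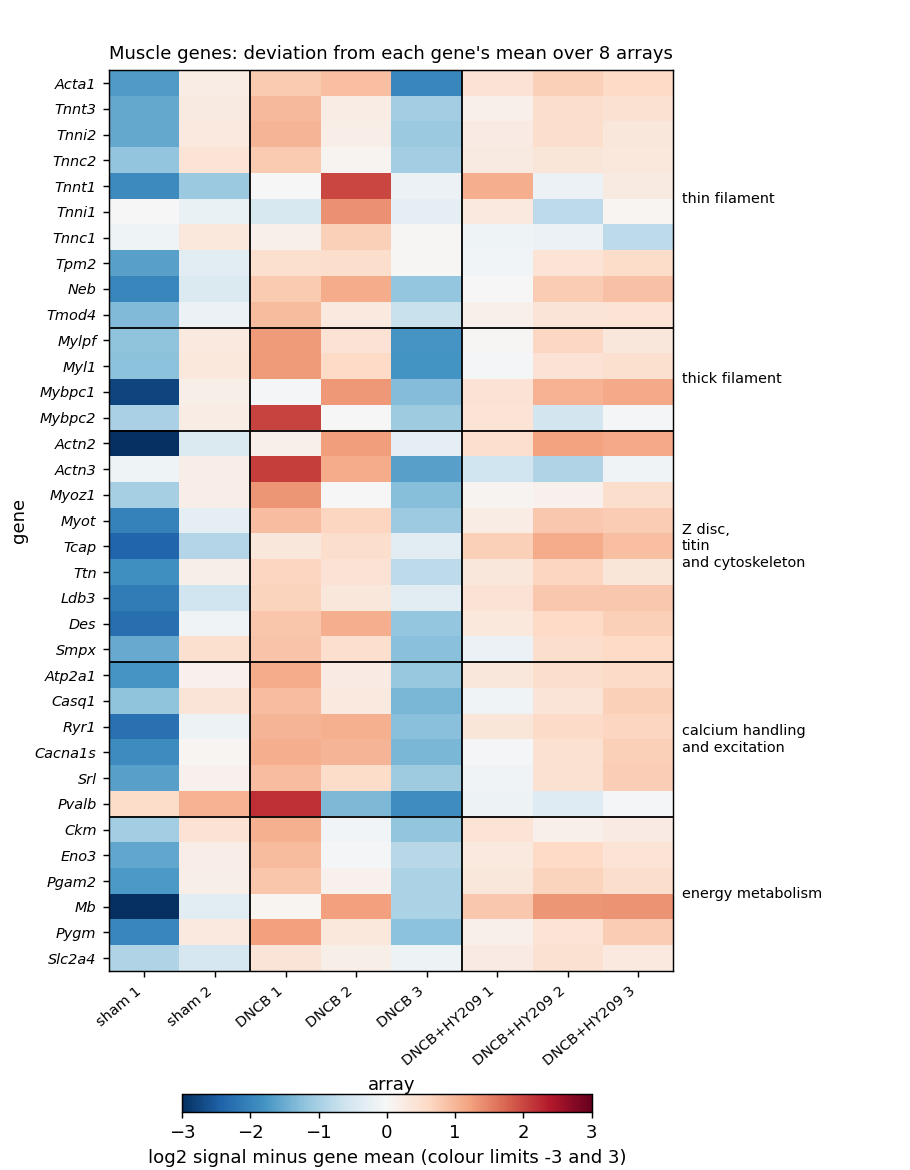
Deviation of each of the 35 muscle genes (rows, ordered by role) from its own mean over the 8 arrays (columns), in log2 units, with colour limits at -3 and 3. The columns of sham 1 and DNCB 3 are blue for most genes, with list means of -1.56 and -0.995, while Tnni1 (0.02 and -0.28) and Tnnc1 (-0.12 and 0.03) lie near their means there and Pvalb is above its mean on sham 1, at 0.56.

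The range over the 8 arrays had a median of 2.88 log2 units among the 35 genes, against 0.96 among all genes. The pooled SD within groups had a median of 0.92 against 0.29, and the share of variance lying between groups a median of 31.8% against 35.1%. The muscle genes therefore varied widely, with no larger part of that variance between groups at the median. The share ran from 7.36% for Tnni1 to 84.7% for Slc2a4. Tcap, Ldb3, Tpm2, Actn2, Tnnt1, Mb and Tnnc1 also had most of their variance between groups. As a description over 8 arrays that share tissue pieces, 560 of the 595 pairs of these genes had a correlation above 0, and the median correlation of a gene with the mean of the other 34 was 0.94. The lowest were Tnnc1, Tnni1 and Pvalb at 0.06, 0.07 and 0.21, and the highest was the calcium release channel Ryr1 at 0.99.

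The arrays low in muscle signal also differed in RNA measures and in other skin compartments. The 3′ signal of Gapdh divided by its 5′ signal, a ratio known to be higher in degraded RNA, was 7.345 on DNCB 3 and 4.46 on sham 1, and 2.105 to 3.24 on the other 6 arrays. In a fit with the log2 Gapdh difference as a covariate, chosen with the data in view, the median difference of the 35 genes was 0.83 for DNCB minus sham, -0.17 for DNCB+HY209 minus DNCB and 0.75 for DNCB+HY209 minus sham. Hair follicle markers (11 of 12 tested) had mean log2 levels of 7.09 to 9.18 in sham, 5.41 to 7.63 in DNCB and 6.22 to 8.41 in DNCB+HY209. They were highest on sham 1 and, within DNCB, on DNCB 3. Over the 8 arrays their mean deviation had a correlation of -0.82 with that of the muscle genes, given as a description. Array 1 of DNCB+HY209, at 8.41, lay above DNCB 3, and its mean muscle deviation was 0.22. The part of these markers in the muscle values was not tested.

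The first comparison asked how muscle genes stood in DNCB skin against sham skin. None of the 35 genes passed the threshold (limma, Benjamini-Hochberg adjusted p under 0.05 over all genes), against 1.83% of all genes (1.37% higher and 0.459% lower), and 7 had an unadjusted p under 0.05, against 16.8%. The log2 difference was above 0 for 34 genes, against 63.2% of all genes, with a median of 0.84 against 0.15. The arrays of the groups did not overlap for 6 genes, all higher in DNCB (17.1%, against 23.3% of all genes). These were Actn2, Tcap and Ldb3 of the Z disc, the thin filament genes Tnnt1 and Tpm2, and Slc2a4. The median rested on sham 1: without that array it was -0.01, with 17 of 35 genes above 0, and without sham 2 it was 1.62.

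The second comparison asked what the HY209 gel changed in DNCB skin. None of the 35 genes passed, nor did any of all genes (0%), and 1 gene, Tnnc1, had an unadjusted p under 0.05, against 1.3% of all genes. The adjusted p was 0.9998 for each of the 35. The median log2 difference was 0.33 against 0.03 for all genes, with 29 genes above 0 (57% of all genes). Arrays did not overlap for Tcap, which was higher (2.83% of all genes were), and for Tnnc1, which was lower (2.17%). Without DNCB 3 the median was -0.28 and 7 genes were above 0, while without DNCB 1 it was 0.79.

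The third comparison set DNCB+HY209 against sham, and it shares arrays with both others. None of the 35 genes passed, against 0.403% of all genes (0.266% higher and 0.137% lower), and 12 had an unadjusted p under 0.05, against 19.3%. The median log2 difference was 1.12 against 0.20 for all genes, with 31 genes above 0 (65.7% of all genes). Arrays did not overlap for 19 genes. Of these, 18 were higher in DNCB+HY209 (51.4%, against 29.1% of all genes), and Pvalb was lower (12.2% of all genes). The Z disc and cytoskeleton genes gave 6 of the 18 (Actn2, Myot, Tcap, Ttn, Ldb3 and Des) and the thin filament 5 (Acta1, Tnnt1, Tpm2, Neb and Tmod4). Energy metabolism gave Eno3, Pgam2, Mb and Slc2a4, calcium handling Atp2a1 and Ryr1, and the thick filament Mybpc1. The median was 0.29 without sham 1 and 2.00 without sham 2.

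**Figure D2:**
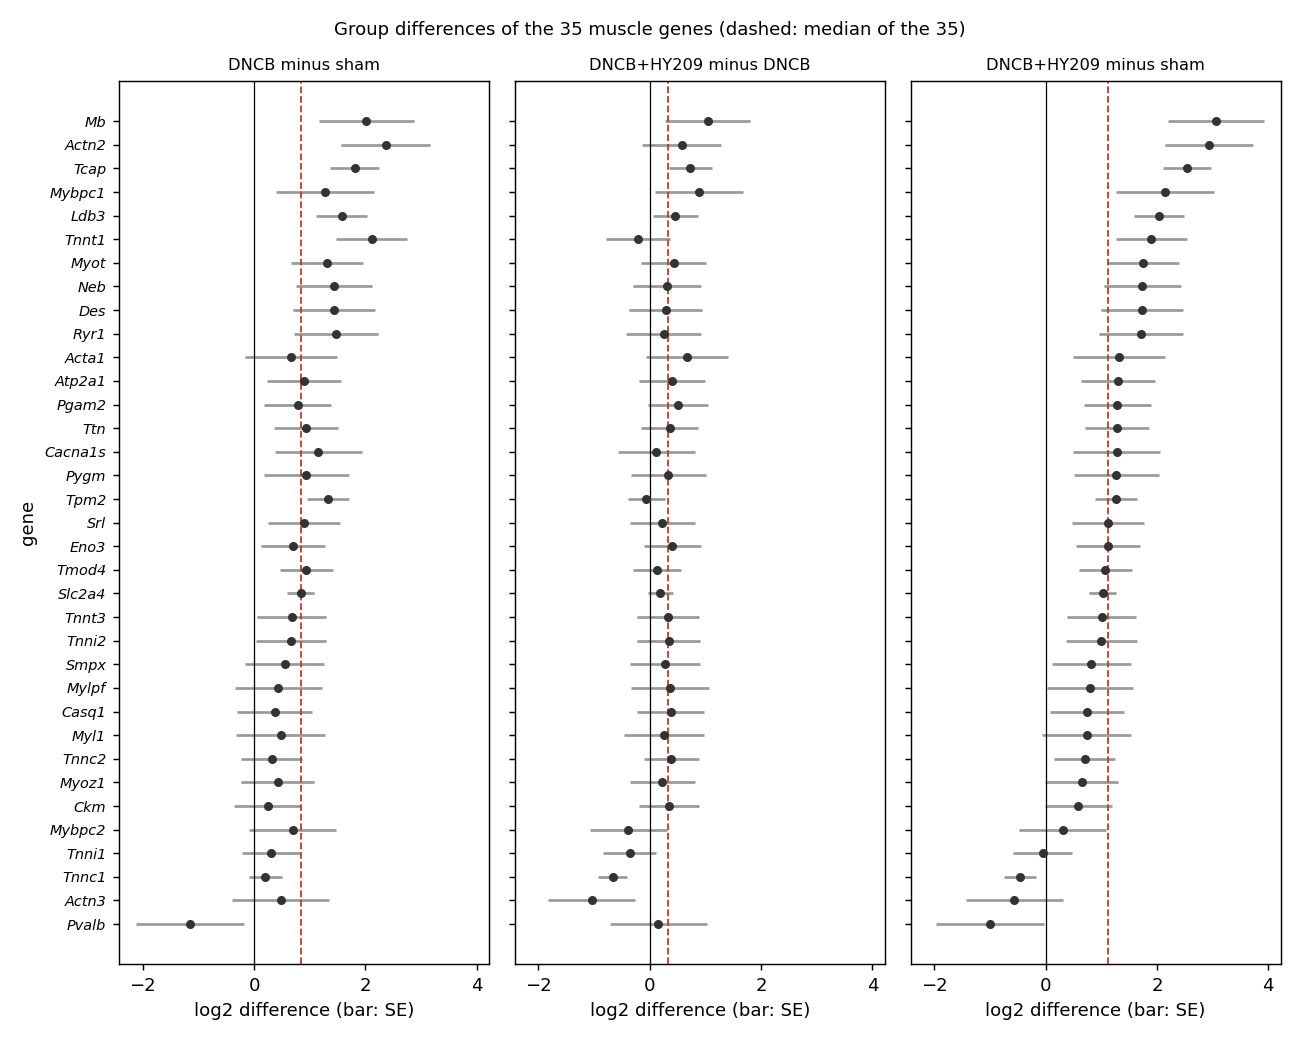
Log2 difference of the 35 muscle genes in the 3 comparisons (points) with the moderated standard error from limma (bars), ordered by DNCB+HY209 minus sham. The dashed line is the median of the 35, at 0.84, 0.33 and 1.12, and Mb, Actn2 and Tcap lie highest and Pvalb lowest in the right panel.

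Other weightings moved the count of genes that passed. With limma array weights, 6 of the 35 genes passed in DNCB+HY209 minus sham (Actn2, Tcap, Mb, Ldb3, Tpm2 and Slc2a4, all higher), where 4.4% of all genes were called higher. With the Gapdh covariate 3 passed in DNCB minus sham (Tcap, Neb and Ldb3, all higher, against 2.87% of all genes) and 1 in DNCB+HY209 minus sham (Tcap, higher, against 0.282%). With the mean level of 65 other muscle genes as a covariate, also added after the data were seen, 0 passed by limma at the adjusted threshold in any comparison, with 8, 4 and 7 genes at an unadjusted p under 0.05. The medians were then -0.57 for DNCB minus sham and -0.39 for DNCB+HY209 minus sham.

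Among the thin filament genes, skeletal actin and the fast troponins followed the list as a whole. Acta1, the alpha actin of skeletal muscle, had log2 signals of 10.30 and 12.22 in sham, 12.80, 12.91 and 10.05 in DNCB, and 12.44, 12.71 and 12.60 in DNCB+HY209. DNCB 3 lay below both sham arrays and the DNCB+HY209 arrays lay above them, by 1.33 at the mean (SE 0.83, adjusted p = 0.374 by limma). Tnnt3, the fast form of the troponin subunit that anchors the complex to tropomyosin, had 9.20 and 11.02 in sham, 11.72, 10.96 and 9.70 in DNCB, and 10.90, 11.27 and 11.19 in DNCB+HY209. Its DNCB and sham arrays overlapped, with a difference of 0.68 (SE 0.62, adjusted p = 0.562). Tnni2, the fast inhibitory subunit, had 9.40 and 11.22 in sham, 11.96, 11.13 and 9.82 in DNCB, and 11.19, 11.47 and 11.28 in DNCB+HY209. Tnnc2, the fast calcium-binding subunit, had 11.10 and 12.70 in sham, 13.06, 12.36 and 11.23 in DNCB, and 12.55, 12.65 and 12.61 in DNCB+HY209. For these 2 genes the groups overlapped in all 3 comparisons, and DNCB minus sham was 0.66 (SE 0.63, adjusted p = 0.580) for Tnni2 and 0.32 (SE 0.55, adjusted p = 0.767) for Tnnc2.

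The slow troponins were all highest on DNCB 2 but differed in how the groups stood. Tnnt1, the slow counterpart of Tnnt3, had log2 signals of 3.84 and 4.63 in sham, 5.73, 7.74 and 5.58 in DNCB, and 6.84, 5.57 and 6.00 in DNCB+HY209. Both sham arrays lay below all 6 others, lowest on sham 1 as most of the list was, with a difference of 2.11 in DNCB (SE 0.64, adjusted p = 0.159 by limma) and 1.90 in DNCB+HY209 (SE 0.64, adjusted p = 0.199). Sham 1 was below its array's median of all probe sets, where log2 differences are approximate. Tnni1, the slow inhibitory subunit, had 4.53 and 4.30 in sham, 4.04, 5.89 and 4.23 in DNCB, and 4.80, 3.72 and 4.56 in DNCB+HY209, so that DNCB 2 stood alone. Its differences were 0.31 (SE 0.53, adjusted p = 0.767) in DNCB and -0.05 (SE 0.53, adjusted p = 0.961) in DNCB+HY209 against sham. Tnnc1, the slow and cardiac calcium-binding subunit, had 3.87 and 4.31 in sham, 4.16, 4.71 and 4.02 in DNCB, and 3.88, 3.81 and 3.20 in DNCB+HY209. It lay above the array median on 2 of 8 arrays, and its DNCB+HY209 arrays were below all DNCB arrays by 0.67 at the mean (log2 difference -0.67, SE 0.26, adjusted p = 0.9998). The other thin filament genes were Tpm2, a tropomyosin, Neb, the nebulin ruler of filament length, and Tmod4, which caps actin filaments. DNCB minus sham was 1.33 for Tpm2 (SE 0.38, adjusted p = 0.141), 1.44 for Neb (SE 0.68, adjusted p = 0.324) and 0.94 for Tmod4 (SE 0.48, adjusted p = 0.341).

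**Figure D3:**
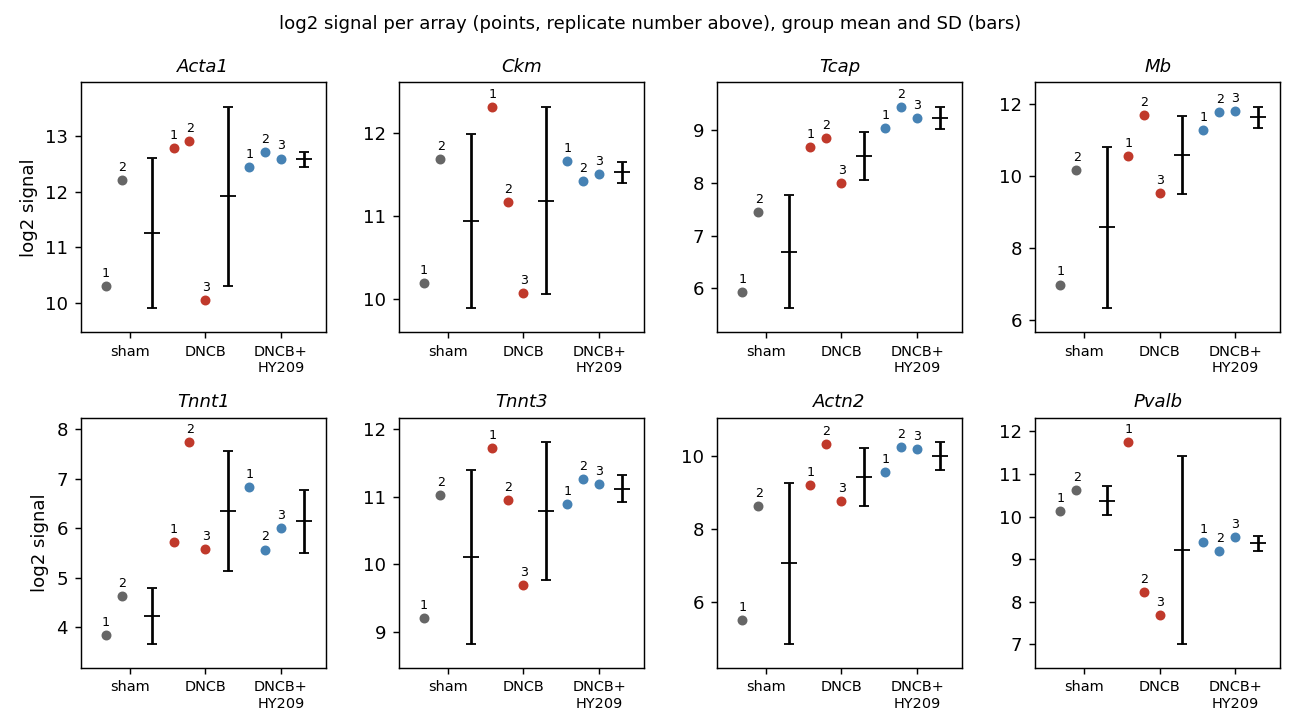
Log2 signal of 8 muscle genes on each array (points, numbered by replicate) with the group mean and SD (bars). The Tcap and Tnnt1 arrays of both DNCB groups lie above the sham arrays, whereas for Acta1, Ckm and Tnnt3 array 3 of DNCB lies at or near the sham 1 level.

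Of the thick filament, both fast light chains and the myosin-binding proteins were on the list. Mylpf and Myl1, the regulatory and an essential light chain of fast fibres, had ranges of 9.35 to 12.40 and 9.35 to 12.43, each lowest on DNCB 3 and highest on DNCB 1. Mybpc2, the fast myosin-binding protein C, had log2 signals of 7.78 and 8.97 in sham, 10.79, 8.73 and 7.69 in DNCB, and 9.15, 8.21 and 8.69 in DNCB+HY209. DNCB 1 was high alone, and HY209 minus DNCB was -0.38 (SE 0.70, adjusted p = 0.9998 by limma). Mybpc1, the slow form, had 6.54 and 9.47 in sham, 9.25, 10.60 and 7.98 in DNCB, and 9.73, 10.33 and 10.42 in DNCB+HY209. Its DNCB+HY209 arrays lay above both sham arrays, by 2.15 at the mean (SE 0.88, adjusted p = 0.239), and above the DNCB mean by 0.88 (SE 0.79, adjusted p = 0.9998), with overlap in the latter.

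Of the Z disc and cytoskeleton genes, 3 of 9 were higher without overlap in DNCB minus sham, against 23.3% of all genes. In DNCB+HY209 minus sham 6 of these 9 were, and 4 of 6 energy metabolism genes, against 29.1% of all genes. Tcap, or telethonin, which caps titin at the Z disc, had log2 signals of 5.94 and 7.45 in sham, 8.67, 8.85 and 7.99 in DNCB, and 9.03, 9.44 and 9.22 in DNCB+HY209. The 3 groups did not overlap and stood in that order. DNCB exceeded sham by 1.81 (SE 0.44, adjusted p = 0.0873 by limma), DNCB+HY209 exceeded DNCB by 0.73 (SE 0.39, adjusted p = 0.9998) and sham by 2.54 (SE 0.44, adjusted p = 0.0542). These were the lowest adjusted p-values among the 35 genes in the comparisons against sham. The last passed the threshold without sham 2 (adjusted p = 0.0431) and without DNCB+HY209 1 (adjusted p = 0.0355), and without sham 1 it was 0.117.

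Actn2, the alpha-actinin that crosslinks actin in all fibre types, had log2 signals of 5.51 and 8.62 in sham, 9.21, 10.31 and 8.76 in DNCB, and 9.56, 10.25 and 10.19 in DNCB+HY209. Sham 1 was lowest by a wide margin, sham 2 lay just under DNCB 3, and DNCB minus sham was 2.37 (SE 0.79, adjusted p = 0.200 by limma). DNCB+HY209 minus sham was 2.93 (SE 0.79, adjusted p = 0.142). Actn3, its paralogue of fast fibres, had 8.44 and 8.77 in sham, 10.63, 9.68 and 6.94 in DNCB, and 7.97, 7.68 and 8.47 in DNCB+HY209. Here the DNCB arrays spanned those of both other groups, and DNCB+HY209 minus DNCB, at -1.04 (SE 0.78, adjusted p = 0.9998), was the lowest of the 35. Against sham, Actn3 was at 0.48 in DNCB (SE 0.87, adjusted p = 0.778) and -0.56 in DNCB+HY209 (SE 0.87, adjusted p = 0.710).

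Ttn, the titin spring that runs from Z disc to M line, had log2 signals of 9.26 and 11.26 in sham, 11.75, 11.52 and 10.31 in DNCB, and 11.43, 11.75 and 11.46 in DNCB+HY209. The desmin gene Des, whose filaments tie neighbouring Z discs together, had 7.21 and 9.36 in sham, 10.29, 10.56 and 8.32 in DNCB, and 9.80, 10.06 and 10.18 in DNCB+HY209. In both genes DNCB 3 lay between the sham arrays and DNCB+HY209 lay above them. Des was higher by 1.73 in DNCB+HY209 than in sham (SE 0.73, adjusted p = 0.245 by limma) and Ttn by 1.29 (SE 0.57, adjusted p = 0.261). Of 6 Ttn probe sets, 5 had DNCB minus sham between 0.87 and 1.11, and the dimmest, below the median on all arrays, had -0.10. For Ldb3, a PDZ and LIM protein of the Z disc, DNCB minus sham was 1.57 (SE 0.45, adjusted p = 0.142). Its other, dimmer probe sets gave 1.15 and 0.35. Myot (myotilin), Myoz1 (a calcineurin-binding Z disc protein) and Smpx (a small muscle protein) differed by 1.32, 0.42 and 0.55, with overlapping arrays.

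Calcium handling genes held the widest contrast within DNCB. Pvalb, the calcium buffer parvalbumin of the fastest fibres, had log2 signals of 10.13 and 10.62 in sham, 11.75, 8.22 and 7.70 in DNCB, and 9.41, 9.18 and 9.53 in DNCB+HY209. DNCB 1 was above and the other DNCB arrays below all arrays of both other groups. It was the member with a negative DNCB minus sham difference, -1.15 (SE 0.98, adjusted p = 0.537 by limma), and without DNCB 1 that was -2.41 (SE 0.30, adjusted p = 0.0336). All DNCB+HY209 arrays lay below both sham arrays, with a difference of -0.999 (SE 0.98, adjusted p = 0.556). Pvalb also stood apart from the list itself. After subtracting each array's mean of the 35 deviations, it was at 1.57 in sham, -0.48 in DNCB and -0.57 in DNCB+HY209, while Mb was at -1.14, -0.02 and 0.78.

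The other 5 genes of this role followed the list mean. Atp2a1, the calcium pump of fast fibres, had log2 signals of 8.91 and 10.79 in sham, 11.79, 10.92 and 9.54 in DNCB, and 11.01, 11.20 and 11.24 in DNCB+HY209. Only the comparison of DNCB+HY209 with sham was free of overlap, at 1.30 (SE 0.66, adjusted p = 0.303 by limma). For Ryr1, DNCB minus sham was 1.47 (SE 0.76, adjusted p = 0.344). Cacna1s, the voltage sensor that opens it, differed by 1.16, Srl (sarcalumenin, a calcium-binding protein of the reticulum) by 0.90 and Casq1, the fast-fibre calcium store calsequestrin, by 0.37, with overlap in each.

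Of the energy metabolism genes, Mb varied most between arrays. Mb, the oxygen store myoglobin, had log2 signals of 6.98 and 10.15 in sham, 10.54, 11.69 and 9.53 in DNCB, and 11.28, 11.79 and 11.81 in DNCB+HY209. Its range of 4.84 was the widest of the 35 genes, and DNCB 3 lay between the sham arrays. Against sham it was higher by 2.02 in DNCB (SE 0.86, adjusted p = 0.286 by limma) and by 3.06 in DNCB+HY209 (SE 0.86, adjusted p = 0.152), the largest difference in the list. A second, dimmer Mb probe set gave 0.12 and -0.13 for these. Ckm, the muscle creatine kinase that buffers ATP, had 10.20 and 11.68 in sham, 12.32, 11.18 and 10.07 in DNCB, and 11.66, 11.42 and 11.51 in DNCB+HY209. The groups overlapped throughout, with a difference from sham of 0.25 in DNCB (SE 0.60, adjusted p = 0.836) and 0.59 in DNCB+HY209 (SE 0.60, adjusted p = 0.574).

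Slc2a4, the insulin-regulated glucose transporter GLUT4 of muscle and fat, had log2 signals of 6.41 and 6.81 in sham, 7.70, 7.48 and 7.17 in DNCB, and 7.55, 7.76 and 7.60 in DNCB+HY209. It had the smallest spread of the 35, with a within-group SD of 0.22, and both sham arrays lay below all others. Against sham, DNCB was higher by 0.84 (SE 0.24, adjusted p = 0.148 by limma) and DNCB+HY209 by 1.03 (SE 0.24, adjusted p = 0.118). Its second probe set gave 0.12 and 0.39. For the muscle forms of enolase, phosphoglycerate mutase and glycogen phosphorylase, Eno3, Pgam2 and Pygm, DNCB minus sham was 0.71, 0.78 and 0.94, with overlap in each.

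Fast and slow fibre genes differed in which DNCB array was highest. All 11 fast genes (Tnnt3, Tnni2, Tnnc2, Mylpf, Myl1, Mybpc2, Myoz1, Actn3, Atp2a1, Casq1 and Pvalb) had their highest signal on DNCB 1, and all 4 slow genes (Tnnt1, Tnni1, Tnnc1 and Mybpc1) on DNCB 2. Of all genes, 7.71% were highest on DNCB 1 and 30% on DNCB 2. Among the slow genes, Tnnc1 lay above the array median on only 2 of 8 arrays and Tnni1 on 6. The mean deviation of the fast genes was -1.02 and 0.34 in sham, 1.36, 0.16 and -1.38 in DNCB, and 0.05, 0.16 and 0.32 in DNCB+HY209. For the slow genes it was -1.19 and -0.21 in sham, -0.09, 1.35 and -0.43 in DNCB, and 0.43, -0.03 and 0.16 in DNCB+HY209. Fast minus slow was therefore 1.45 on DNCB 1, -1.19 on DNCB 2 and -0.94 on DNCB 3, against 0.17 and 0.55 in sham and -0.37, 0.18 and 0.16 in DNCB+HY209. By group it was 0.36 ± 0.27 (SD, n = 2), -0.23 ± 1.46 (n = 3) and -0.01 ± 0.31 (n = 3). The groups overlapped, and the widest contrast lay between arrays of DNCB skin. The pattern of highest arrays also held after quantile normalization, where 3 slow genes passed the filter, and after centring each array.

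**Figure D4:**
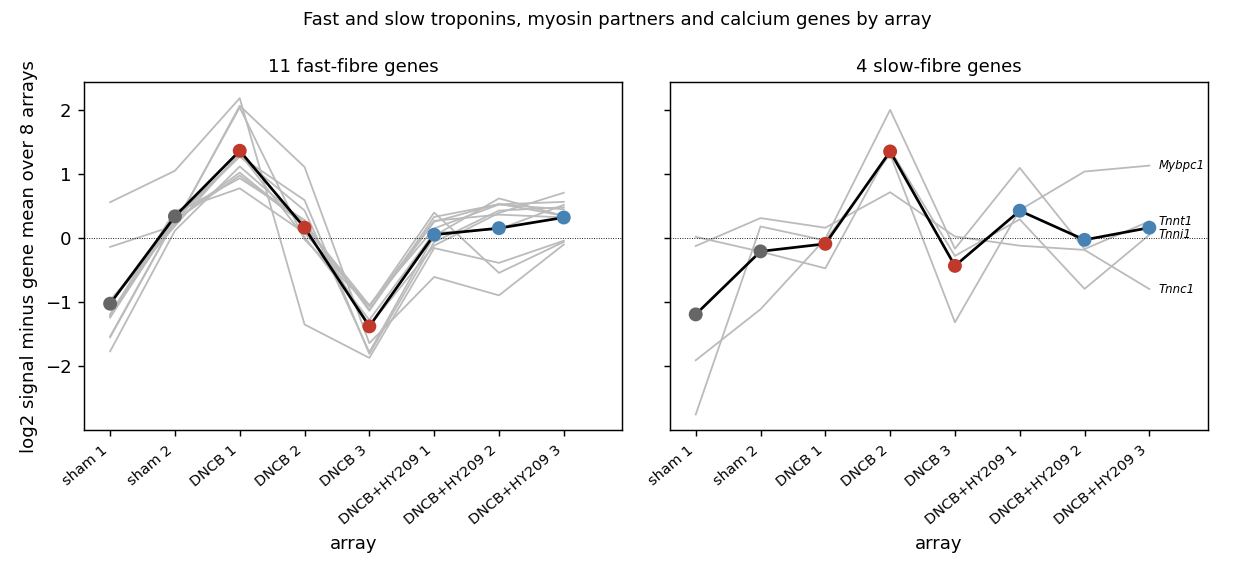
Deviation from each gene's own mean (log2) on the 8 arrays for the 11 fast-fibre genes (left) and the 4 slow-fibre genes (right), with single genes in grey and their mean in black with points coloured by group. The fast mean peaks on DNCB 1 at 1.36 and the slow mean on DNCB 2 at 1.35.

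Of 11 pairs of a fast gene and a paralogue, listed with earlier results of these data known, 9 had both partners above the filter. In 9 of 9 the deviation of the fast gene minus that of its partner was higher on DNCB 1 than on DNCB 2. All 9 fast partners are among the 11 fast genes above and 4 slow partners are the slow genes above. Those 4 pairs therefore show the same values again, and the other 5 reuse the fast gene's values. For Tnnt3 minus Tnnt1 it was 0.99 on DNCB 1 and -1.79 on DNCB 2, for Tnni2 minus Tnni1 1.49 and -1.18, for Tnnc2 minus Tnnc1 0.61 and -0.63, and for Mybpc2 minus Mybpc1 2.07 and -1.33. The other 5 pairs had partners outside the 4 slow genes. They were Atp2a1 minus Atp2a2 at 1.04 and -0.58, Casq1 minus Casq2 at 1.08 and -0.33, Myoz1 minus Myoz2 at 1.44 and -1.89, Actn3 minus Actn2 at 1.90 and -0.15, and Myl1 minus Myl3, where the values were nearly equal at 1.04 and 1.01. Actn2 is itself among the 35 genes and serves all fibre types, so its pair is no contrast of a fast with a slow form. Actn3 minus Actn2 had group means of 2.02 in sham, 0.13 in DNCB and -1.48 in DNCB+HY209. Its arrays were 3.41 and 0.63 in sham, 1.90, -0.15 and -1.35 in DNCB, and -1.11, -2.09 and -1.23 in DNCB+HY209. Myoz1 minus Myoz2 had 1.65 and 1.49 in sham, 1.44, -1.89 and -1.02 in DNCB, and -0.08, -1.19 and -0.41 in DNCB+HY209. Both sham arrays lay above all others, DNCB 1 only narrowly below, and no other tested pair had this order.

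Muscle genes outside the list were counted in 7 fixed lists of 117 genes, of which 93 passed the filter. In DNCB minus sham 1 of the 93 rose and 0 fell (limma, adjusted), against 1.37% of all genes higher, in DNCB+HY209 minus DNCB 0 passed (0 at an unadjusted p under 0.05), and in DNCB+HY209 minus sham 1 rose and 0 fell, against 0.266% of all genes higher. The gene was Myh2, the heavy chain of fast oxidative (type IIa) fibres, with log2 signals of 5.32 and 6.67 in sham, 10.27, 11.26 and 9.78 in DNCB, and 10.87, 10.52 and 10.55 in DNCB+HY209. It rose by 4.45 in DNCB (SE 0.48, adjusted p = 0.00639) and by 4.66 in DNCB+HY209 (SE 0.48, adjusted p = 0.00682), and the latter had an adjusted p of 0.0625 without sham 1. DNCB 3, low for most of the 35 genes, was here far above both sham arrays. Myh2 was highest on DNCB 2, unlike the 11 fast genes described above. Myh4, the heavy chain of the fastest (type IIb) fibres, had 10.52 and 10.98 in sham, 12.75, 6.86 and 9.83 in DNCB, and 10.96, 5.29 and 6.04 in DNCB+HY209. It was highest on DNCB 1, as the 11 fast genes described above were, and DNCB+HY209 minus sham was -3.32 at overlapping levels. Myh1, the heavy chain of fast type IIx fibres, had 10.47 and 13.33 in sham, 11.81, 12.79 and 12.86 in DNCB, and 13.00, 13.22 and 13.02 in DNCB+HY209. Unlike Myh4 it was highest on sham 2, and DNCB 1 was its second lowest array. Its DNCB+HY209 arrays lay above all DNCB arrays, by 0.59 (SE 0.61, adjusted p = 0.9998 by limma). The heavy chain genes are near-identical in sequence, so that probe sets can share signal.

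In the other lists no gene passed in any comparison. The median difference from sham was 1.18 in DNCB and 1.16 in DNCB+HY209 for 28 other sarcomere genes, 0.72 and 0.86 for 14 calcium handling genes, and 0.81 and 0.91 for 19 metabolism genes. For 8 genes of the membrane and dystrophin complex it was 0.54 and 0.61, and for 7 genes of atrophy and denervation 0.84 and 0.77. For 13 myogenic regulators and regeneration genes it was 0.16 and 0.15, near the median of all genes. Of those 13, 11 were highest on DNCB 2, as were 18 of the 28 sarcomere genes and 4 of the 7 atrophy genes, against 30% of all genes. Myf6, a myogenic transcription factor of mature fibres, had log2 signals of 4.38 and 5.36 in sham, 6.70, 8.05 and 5.48 in DNCB, and 6.13, 6.33 and 6.13 in DNCB+HY209. Chrna1, a subunit of the acetylcholine receptor at the neuromuscular junction, had 6.40 on DNCB 2 and 3.73 to 4.51 elsewhere. Both were chosen as examples after their values were seen, and neither passed the test against sham (DNCB minus sham adjusted p = 0.192 and 0.332 by limma).

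Markers of other tissues and cell types of skin were set beside these values. Of 8 cardiac markers, 6 were below the filter on low signals (Nppa, Myl7, Tnni3, Ryr2, Gja5 and Tbx5), and the tested ones, Nppb and Tnnt2, were highest on DNCB+HY209 2 and DNCB 2. Smooth muscle and pericyte markers (9 of 10 tested) had mean log2 levels of 5.82 and 5.83 in sham, 6.23 to 6.97 in DNCB and 6.02 to 6.25 in DNCB+HY209, and Rgs5 of pericytes was the marker of that list that rose in DNCB (adjusted p = 0.0234 by limma). Adipocyte markers (5 of 12 tested) had 7.92 and 7.16 in sham, 5.47 to 7.04 in DNCB and 5.41 to 6.36 in DNCB+HY209. They were highest on sham 1, where most muscle genes were lowest. On DNCB 3, also low in muscle signal, they had 5.47, the lowest level of that group. Ucp1, the defining gene of brown fat, was below the filter, and the 3 tested genes of that list had 5.87 and 6.37 in sham, 6.03 to 6.62 in DNCB and 6.09 to 6.95 in DNCB+HY209. All 10 keratinocyte markers passed the filter, which bears on the skin label. Their levels were 10.44 and 9.33 in sham, 9.98 to 11.30 in DNCB and 9.49 to 11.56 in DNCB+HY209. Leukocyte markers (7 of 8 tested) had 5.01 and 5.29 in sham, 6.96 to 8.07 in DNCB and 6.44 to 7.52 in DNCB+HY209. Endothelial markers (8 of 8 tested) had 5.04 and 4.86 in sham, 5.93 to 6.59 in DNCB and 5.34 to 5.87 in DNCB+HY209. Fibroblast markers (9 of 10 tested) had 8.26 and 8.97 in sham, 8.43 to 9.43 in DNCB and 7.91 to 8.20 in DNCB+HY209. In DNCB+HY209 minus DNCB 0 of the 9 were above 0, with a median of -1.005, and 5 were lower without overlap (2.17% of all genes were). None passed the test (0 by limma, 4 at an unadjusted p under 0.05). This was not particular to fibroblasts. In the same comparison 0 of 8 endothelial markers were above 0, with 3 lower without overlap. Of 9 smooth muscle and pericyte markers, 2 were above 0 and 4 were lower without overlap. Hair follicle markers went the other way, with 11 of 11 above 0. Nerve markers (3 of 6 tested) had 5.96 to 6.60 over all arrays. In DNCB minus sham 4 endothelial markers rose (Cdh5, Emcn, Plvap and Cldn5), as did 3 leukocyte markers (Ptprc, S100a8 and S100a9) and the fibroblast marker Col5a1. Of all genes, 1.37% were called higher there and 0.459% lower. The basal keratin Krt15 and the hair keratin-associated Krtap6-2 and Krtap3-1 fell. In DNCB+HY209 minus sham S100a8 and S100a9 rose, against 0.266% of all genes called higher. In DNCB+HY209 minus DNCB none of these markers passed, nor did any of all genes (0%). The part of these tissues in the muscle values was not tested.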

How the data were processed

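RNA of 8 frozen samples of dorsal skin was amplified from the 3′ end, labelled with biotin and measured on 1 Affymetrix mouse array per sample, per the labels' protocols. The deposited value of a probe set was its log2 signal, made by the authors. Affymetrix Expression Console and MAS5 are named in the submitters' processing notes, and how arrays were brought to a common scale is not stated in those notes or the labels. Array medians ran from 4.07 to 4.22. The table held 45101 probe sets, more than the array model named in the labels is known to carry. Genes were named through the annotation that GEO pairs with the table, which is of another, larger model. A unique gene symbol belonged to 34945 of them and several symbols to 932, while 9160 were unnamed here and 64 served as controls. The symbol list was matched through the platform annotation, and 24 of the 35 genes had 1 probe set and all had 55 in total. A gene was kept if its probe set lay above the array median on at least 2 of 8 arrays.

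Groups were compared with limma 3.58.1 (lmFit, then eBayes with an intensity trend) in R 4.3.3. A common fit held all 8 arrays, p-values were two-sided and adjusted over 12420 genes by Benjamini-Hochberg, and the threshold was 0.05. Adjusted p-values and standard errors are from that fit, which was also tested on simulated data. Precision is limited by how few arrays there are. Alternatives were quantile normalization, centring, no filter or a stricter one, other choices of probe set, no trend, robust variance, array weights, a block for the replicate number, only the groups compared, and each array left out in turn. Covariates for other muscle genes and for Gapdh were added after the data were seen. Values on every array and statistics were given by rule for the 3 lowest and 3 highest differences of each comparison, for Acta1, Ckm, Ttn and Des and for 4 paralogue pairs. Atp2a1 and Slc2a4, and other genes with part of these values, were added. The genes and lists were chosen with earlier results of these data known. Motifs were searched on both strands with Python 3.11.15.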

Additional observations from a re-analysis of the deposited data

How the results depend on the processing

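Leaving out each array in turn gave 0 to 1 genes past the threshold in DNCB minus sham, 0 to 0 in DNCB+HY209 minus DNCB and 0 to 1 in DNCB+HY209 minus sham. The median difference ran from -0.012 to 1.62, from -0.28 to 0.79 and from 0.29 to 2.00. The gene in DNCB minus sham was Pvalb, lower without DNCB 1, and in DNCB+HY209 minus sham it was Tcap, without sham 2 or DNCB+HY209 1. Array weights, whose estimation stopped before reaching its convergence tolerance, gave 6 genes in DNCB+HY209 minus sham. The Gapdh covariate gave 3 in DNCB minus sham and 1 in DNCB+HY209 minus sham. The muscle level covariate gave medians of -0.57 and -0.39 for these comparisons. Under the other settings 0 genes passed (limma, with 0 to 18 at an unadjusted p under 0.05), and no median changed sign outside those named here and, for DNCB+HY209 minus DNCB, the Gapdh covariate (-0.17). The cause of these shifts was not tested.

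With the replicate number as a block, 0 of the 35 genes passed and the medians were 1.10, 0.33 and 1.33, while the count over all genes was 35 against 227 in DNCB minus sham and 12 against 50 in DNCB+HY209 minus sham. Deviations of same-numbered arrays correlated between -0.60 and 0.28, so the numbers were not taken as a pairing.

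Of 51 differences of 17 named genes, 25 kept their sign in every setting without a covariate. With the muscle level covariate 21 of the 51 had another sign than in the main analysis, and with the Gapdh covariate 7. With array weights Tnni1 in DNCB minus sham was -0.042, Mybpc2 in DNCB+HY209 minus sham -0.10 and Pvalb in DNCB+HY209 minus DNCB -0.47. Tnni1 in DNCB+HY209 minus sham was 0.021 after centring and 0.019 with the block. Over arrays left out, DNCB minus sham ran from -0.29 to 1.62 for Acta1, -0.29 to 1.56 for Actn3, -0.49 to 0.99 for Ckm, -0.23 to 1.59 for Tnnt3, -0.25 to 1.57 for Tnni2, -0.49 to 1.12 for Tnnc2, -0.28 to 0.65 for Tnni1, -0.012 to 0.42 for Tnnc1, -0.19 to 2.74 for Mybpc1, -0.16 to 1.38 for Mybpc2 and -0.0695 to 1.93 for Ttn. DNCB+HY209 minus DNCB ran from -0.27 to 1.16 for Acta1, -0.22 to 0.90 for Ckm, -0.22 to 0.79 for Tnnt3, -0.23 to 0.83 for Tnni2, -0.11 to 0.81 for Tnnc2, -0.60 to 0.48 for Tnnt1, -0.70 to 0.23 for Tnni1, -1.07 to 0.47 for Mybpc2, -0.085 to 0.63 for Ttn, -0.61 to 1.41 for Pvalb and -0.42 to 0.71 for Des. DNCB+HY209 minus sham ran from -0.16 to 1.33 for Ckm, -0.10 to 1.51 for Tnnc2, -0.27 to 0.27 for Tnni1 and -0.29 to 0.90 for Mybpc2.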

Other observations

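Genes outside the list whose signal followed the mean deviation of the 35 genes most closely over the 8 arrays were ranked by Pearson correlation, as a description over arrays that share tissue pieces. Of 12385 genes compared, 94 had a correlation above 0.9. The first 10 were Pdlim7 (0.990), Itgb1bp2 (0.989), Pde4dip (0.987), Hjv (0.985), Smarcd3 (0.980), Cox8b (0.979), Jph1 (0.978), Usp13 (0.975), Acyp2 (0.974) and Ndufa2 (0.974). Cox8b, a subunit of cytochrome oxidase found in muscle and brown fat, and Jph1, which holds the membranes of the muscle triad together, were in the fixed muscle lists, and the other 8 were not. Pdlim7, a PDZ and LIM domain protein, had log2 signals of 5.44 and 6.66 in sham, 7.79, 7.50 and 5.87 in DNCB, and 7.04, 7.20 and 7.36 in DNCB+HY209. Hjv, the hemojuvelin of iron regulation that is known from skeletal muscle and liver, had 5.21 and 6.86 in sham, 7.71, 7.35 and 5.90 in DNCB, and 6.71, 7.15 and 7.05 in DNCB+HY209. In both, sham 1 and DNCB 3 were the lowest arrays. Ndufa2, a subunit of respiratory complex I present in all cells, was also lowest on sham 1 and DNCB 3 and highest on DNCB 1, within a range of 0.41.

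Ankrd1, a stress-induced repeat protein of the sarcomere, had a log2 signal of 7.78 on DNCB 2, against 2.64 to 4.71 on the other 7 arrays. Myh8, the perinatal myosin heavy chain, had 7.00 there and 3.22 to 4.86 elsewhere. Sln, the calcium pump inhibitor sarcolipin, had 3.31 and 5.29 in sham, 7.48, 8.79 and 5.68 in DNCB, and 6.60, 6.70 and 7.73 in DNCB+HY209, with no overlap between sham and either other group. None of these 3 passed the threshold against sham (limma adjusted p = 0.413, 0.442 and 0.140 for DNCB minus sham), and they were named after their values were seen.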
